A study of Mus musculus with 71 samples.

Results

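The 10 genes described here are the transcription factor Atf4 and 9 genes of the integrated stress response that it drives: Atf3, Ddit3, Ddit4, Trib3, Chac1, Asns, Psat1, Phgdh and Mthfd2. They were chosen by gene name from 21527 genes in the deposited tables, and all 10 were among the 12659 genes abundant enough to be tested. The study followed RNA decay by SLAM-seq in male mouse embryonic stem cells (mESC) grown in 2i/LIF medium, which holds cells in the naive pluripotent state. In SLAM-seq, RNA made in the presence of 4-thiouridine (s4U) acquires T-to-C changes in its reads, and the loss of these changes after s4U is replaced by uridine gives the decay. Cells received 100 µM s4U for 24 h, with a medium change every 3 h, and were then washed and given fresh medium with an excess of uridine (the chase). Treatment with STM2457, an inhibitor of the mRNA m6A methyltransferase Mettl3, or with the solvent DMSO as control began 6 h ahead of the chase and continued through it.

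RNA was collected at 8 chase times, 0, 1, 1.5, 2.3, 3.5, 5.3, 8 and 12 h, in each treatment, and from cells never given s4U (unlabelled) in each treatment. There were 71 libraries in 18 groups of 4, except for STM2457 at 3.5 h with 3. All groups are the same cell line with no genetic change, in wells of one plate format seeded to be confluent at collection. The study's methods describe replicates as independent and biological, but the labels do not say that these were separate cultures. The p-values measure the spread between these libraries, part of which may be technical. The hours of treatment of the unlabelled libraries are not given. No medium change is given for the chase, so chase time, hours of STM2457 or DMSO (18 h at the end of the chase) and time since fresh medium cannot be told apart in any change over the chase.

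The integrated stress response begins when kinases that sense amino acid shortage, unfolded protein, haem shortage or viral RNA phosphorylate the translation factor eIF2. Most translation then slows, while the Atf4 mRNA is translated more, and the ATF4 protein switches on genes for amino acid synthesis and transport together with a second tier of stress factors. Several of these feed back: CHOP (Ddit3) and ATF3 are transcription factors, TRIB3 is a pseudokinase that restrains ATF4 and AKT, DDIT4 (REDD1) restrains mTORC1, and CHAC1 degrades glutathione. ASNS makes asparagine, PHGDH and PSAT1 are steps of serine synthesis, and MTHFD2 is a mitochondrial folate enzyme.

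ATF4 binds DNA with a C/EBP partner at a composite element. Its core, TGATGNAAN, was searched on both strands in 300.0-base RefSeq promoters (250 bases before to 50 after a RefSeq gene start, GRCm38.p6). It was found in 3.95% of 32851 promoters and at 4 of the 10 genes, Atf3, Chac1, Trib3 and Asns. The 4 windows are shown because they let the shared core be compared with its flanks, 5′ to 3′ with the matched letters in capitals:
Atf3, chr1:191183428-191183452, plus strand: ggacttggTGATGCAAGtgcgagaa
Chac1, chr2:119351040-119351064, minus strand: ggcaggagTGATGCAACggcaggga
Trib3, chr2:152344031-152344055, plus strand: cgcccggcTGATGTAAAcctgagct
Asns, chr6:7693216-7693240, minus strand: cagccacaTGATGAAACttcccgca
Counted from the RefSeq start of each promoter, the match lay 111 to 103 bases before it at Atf3, 194 to 186 before it at Chac1, 23 to 15 before it at Asns, and 13 to 21 after it at Trib3. These starts are not the outer ends of the GENCODE genes given below: by those ends the Atf3 and Asns matches lie inside the gene and the Trib3 match lies just before it. A match of letters is a description and not a site shown to be bound, and the other 6 genes lack these letters only in this window. The 4 genes with the match did not behave alike below: Chac1 and Trib3 rose over the chase, Asns did not pass the test, and Atf3 was near the detection limit.

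Read depth was 4539726 to 7368244 reads counted in gene windows for the 36 DMSO libraries and 4704543 to 6804970 for the 35 STM2457 libraries. Of the pluripotency markers, Pou5f1 was at 603 to 1103 CPM (read counts scaled to a common library size) over the 71 libraries. The medians of the others ran from 2.66 CPM for Klf4, at 0 in 3 libraries, to 2719 CPM for Dppa5a. Fibroblast collagen Col1a1 had a median of 0.163 CPM and was at 0 in 34 libraries. The summed level of 7 pluripotency markers was 4260 to 4748 CPM in DMSO at 0 h and 3135 to 3325 at 12 h; in STM2457 it was 4151 to 4774 and 3313 to 3726. The 4 mesoderm markers, mostly the gene T, were highest in unlabelled cells, where they summed to 58.6 to 80.2 CPM in DMSO and 19.1 to 47.1 CPM in STM2457, against means of 21.8 and 16.1 CPM at 0 h. They summed to 31.7 to 42.7 CPM in DMSO and 14.4 to 18.3 CPM in STM2457 at 5.3 h, and to 9.91 to 19.5 and 16.4 to 26.9 CPM at 12 h. The 4 endoderm markers summed to at most 12.6 CPM in the unlabelled, 0 h and 12 h libraries. The share of reads mapping to several places fell from a mean of 27.2% at 0 h to 23.8% at 12 h in DMSO and from 27.2% to 24.1% in STM2457, and it was out of order at 5.3 h (25.5% to 26.5% in DMSO, against means of 24.7% at 3.5 h and 24.6% at 8 h). The part of these shifts in the results was not tested. Of the reads of Phgdh 80.9% mapped to several places, against at most 1.08% for the other 9 genes. Phgdh is therefore uncertain in all read counts and in its decay.

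**Figure D1:**
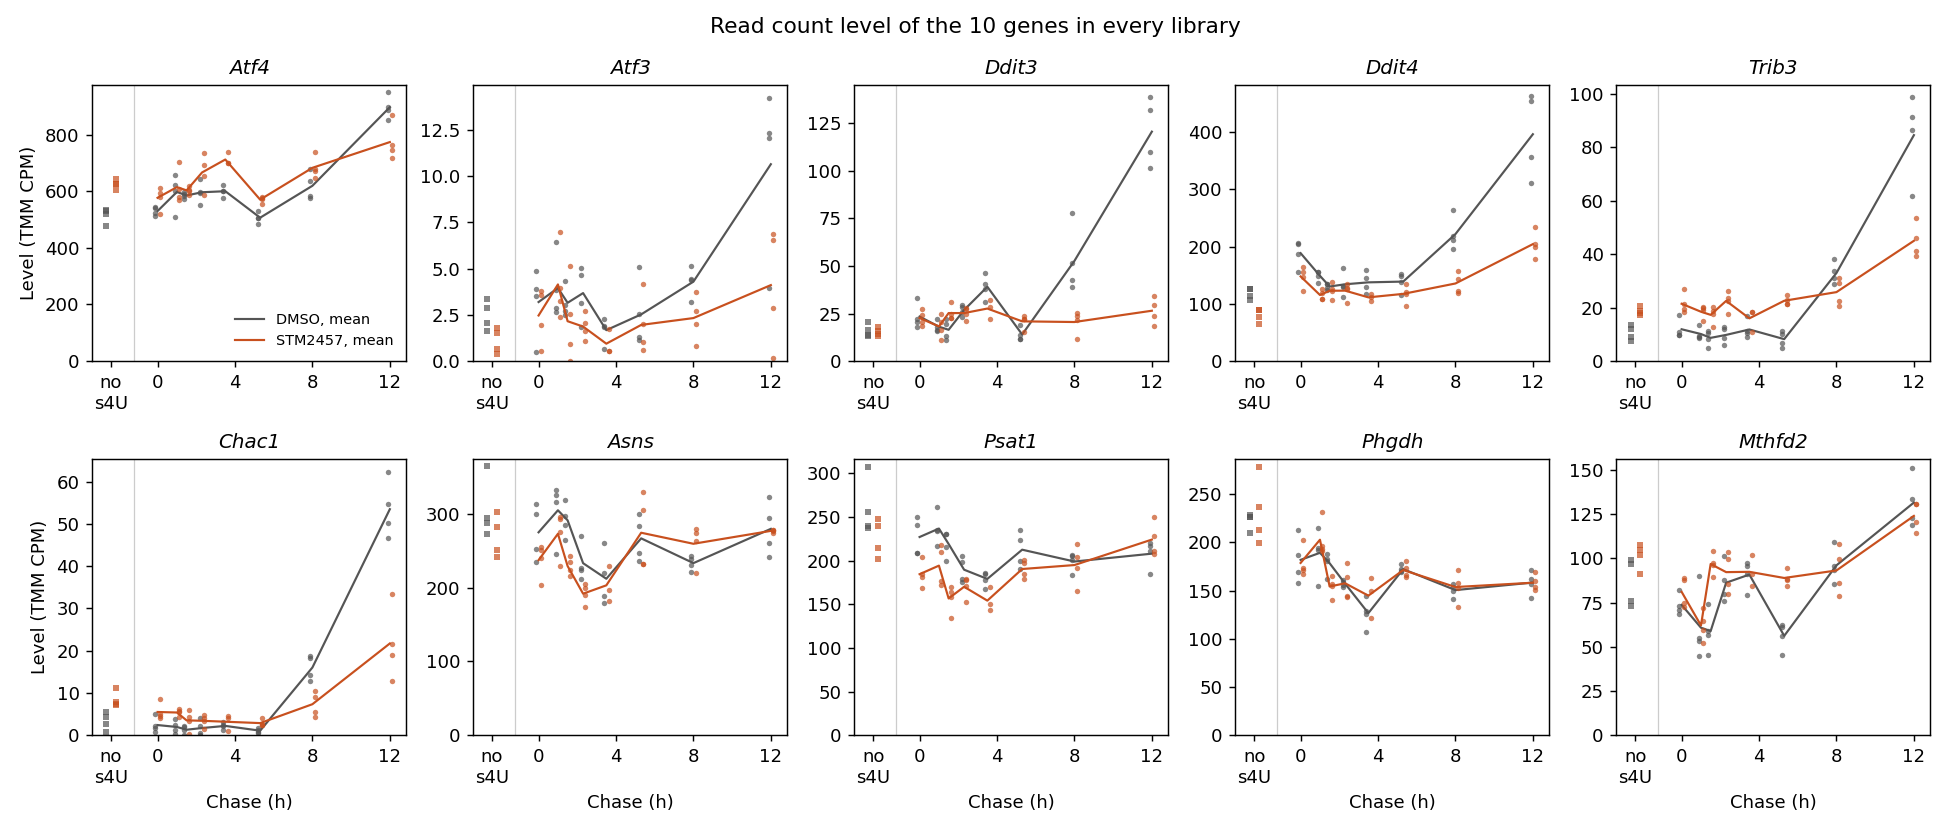
Level of the 10 genes in TMM-normalised CPM (y axes from 0) against chase time in h. Points are single libraries, lines are group means, and squares at the left are the unlabelled libraries; grey is DMSO and orange STM2457. Ddit3, Trib3, Chac1 and Ddit4 climb in DMSO between 5.3 and 12 h, whereas Asns, Psat1 and Phgdh do not.

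The first question was how the levels changed over the chase in control cells. In DMSO, 6 of the 10 genes rose between 0 h and 12 h and none fell (edgeR quasi-likelihood test, adjusted p below 0.01), against 4.84% of all 12659 genes that rose, 8.20% that fell and 13% in either direction. The risers were Chac1, Trib3, Ddit3, Ddit4, Mthfd2 and Atf4. In these bulk libraries, more cells that express a gene and more RNA per cell cannot be told apart. Gene positions below are on GRCm38.p6 (GENCODE annotation). The median log2 fold change of the 10 genes was 0.95, and that of all genes tested 0.04. Libraries at 12 h lay wholly above those at 0 h for the same 6 genes, as they did for 12.1% of all genes.

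Atf4 (ENSMUSG00000042406.8, chr15:80255184-80257541, plus strand), the hub of the response, was read in a 252-base 3′ UTR window, as all genes here were counted near the 3′ end. In DMSO it was at 544, 521, 512 and 542 CPM at 0 h and at 885, 898, 852 and 951 CPM at 12 h. All libraries at 12 h exceeded all at 0 h. The rise was 1.69-fold (log2 0.76 ± 0.08 SE, n = 4 per group, edgeR adjusted p = 5.1e-12). At 5.3 h its level was lower than at either neighbouring time, with a mean of 506 CPM against 600 at 3.5 h and 619 at 8 h.

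Ddit3 (chr10:127290774-127296288, plus strand), which encodes the pro-apoptotic factor CHOP, was at 17.9, 21.9, 20.5 and 33.4 CPM at 0 h in DMSO and at 110, 101, 132 and 139 CPM at 12 h. The annotation holds a second, overlapping gene named Ddit3, and the deposited table gives the symbol alone, so the position is that of the longer one and which was counted is not known. The groups were far apart, and the rise was 5.14-fold (log2 2.36 ± 0.22, edgeR adjusted p = 3.3e-13). The course between was not steady. The DMSO mean was 39.1 CPM at 3.5 h and 52.6 CPM at 8 h, with 11.5 to 19.2 CPM at 5.3 h, so that the highest library at 5.3 h (19.2 CPM) lay below the lowest of both neighbours.

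Atf3 (chr1:191170296-191218039, minus strand), another factor of the second tier, was near the limit of detection, with a median of 14 reads per library and none in 1 library. In DMSO it was at 4.85, 0.476, 3.92 and 3.53 CPM at 0 h and at 12.1, 3.97, 12.3 and 14.2 CPM at 12 h. One library at 12 h fell within the range at 0 h, and the difference (log2 1.73 ± 0.64) missed the threshold (edgeR adjusted p = 0.040).

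Trib3 (chr2:152337422-152344032, minus strand) was at 9.71, 17.3, 9.72 and 10.9 CPM at 0 h in DMSO and at 86.4, 61.6, 91.3 and 98.5 CPM at 12 h. The rise was 7.08-fold (log2 2.82 ± 0.23, edgeR adjusted p = 8.5e-16). Most of it came late, since the mean was still 8.22 CPM at 5.3 h and reached 32.9 CPM at 8 h.

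Chac1 (chr2:119351229-119354381, plus strand) had the largest fitted rise of the 10 genes, from a low level. In DMSO it was at 5.03, 1.75, 2.18 and 0.642 CPM at 0 h, which rests on 4 to 29 reads per library, and at 46.7, 62.3, 54.7 and 50.3 CPM at 12 h, on 232 to 361 reads. The fitted fold was 22.3 (log2 4.48 ± 0.55, 95% interval 3.38 to 5.58, edgeR adjusted p = 2.3e-09). At 8 h it had reached 14.3, 18.7, 12.7 and 18.4 CPM, already above every DMSO library from 0 to 5.3 h.

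Ddit4 (chr10:59949669-59951834, minus strand) had its lowest means between these times. In DMSO it was at 155, 206, 188 and 205 CPM at 0 h, had a mean of 130 CPM at 1.5 h, and was at 311, 357, 462 and 454 CPM at 12 h. The change from 0 to 12 h was 2.10-fold (log2 1.07 ± 0.12, edgeR adjusted p = 5.1e-10).

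The 4 enzymes split. Mthfd2 (chr6:83305691-83325908, minus strand) was at 68.7, 82.4, 70.8 and 73.1 CPM at 0 h in DMSO and at 123, 119, 134 and 151 CPM at 12 h, a rise of 1.79-fold (log2 0.84 ± 0.14, edgeR adjusted p = 3.2e-06). Asns lies at chr6:7675169-7693254, Psat1 at chr19:15904678-15947337 and Phgdh at chr3:98313170-98339990, all on the minus strand. Their log2 changes were 0.02 ± 0.12 for Asns, -0.13 ± 0.10 for Psat1 and -0.20 ± 0.10 for Phgdh (edgeR adjusted p = 0.91, 0.38 and 0.16), with 95% intervals of -0.21 to 0.26, -0.32 to 0.07 and -0.40 to 0.00. The abundant asparagine synthetase mRNA stayed between 179 and 332 CPM in all labelled DMSO libraries, with a mean of 275 CPM at 0 h and 280 CPM at 12 h.

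At 8 h, a time added after the values at 12 h were known, 3 of the genes were already higher than at 0 h in DMSO, against 1.22% of all genes that rose, 2.69% that fell and 3.90% called in either direction. These were Chac1 (log2 2.74 ± 0.53), Trib3 (1.47 ± 0.23) and Ddit3 (1.17 ± 0.22), with edgeR adjusted p = 0.00032, 5.2e-06 and 0.00020. Ddit3 lost this call without DMSO replicate 3 (log2 0.86). Over all 8 times, 9 of the 10 genes changed in DMSO (edgeR F test on 7 degrees of freedom), Atf3 being the exception (adjusted p = 0.015), against 30.1% of all genes.

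**Figure D2:**
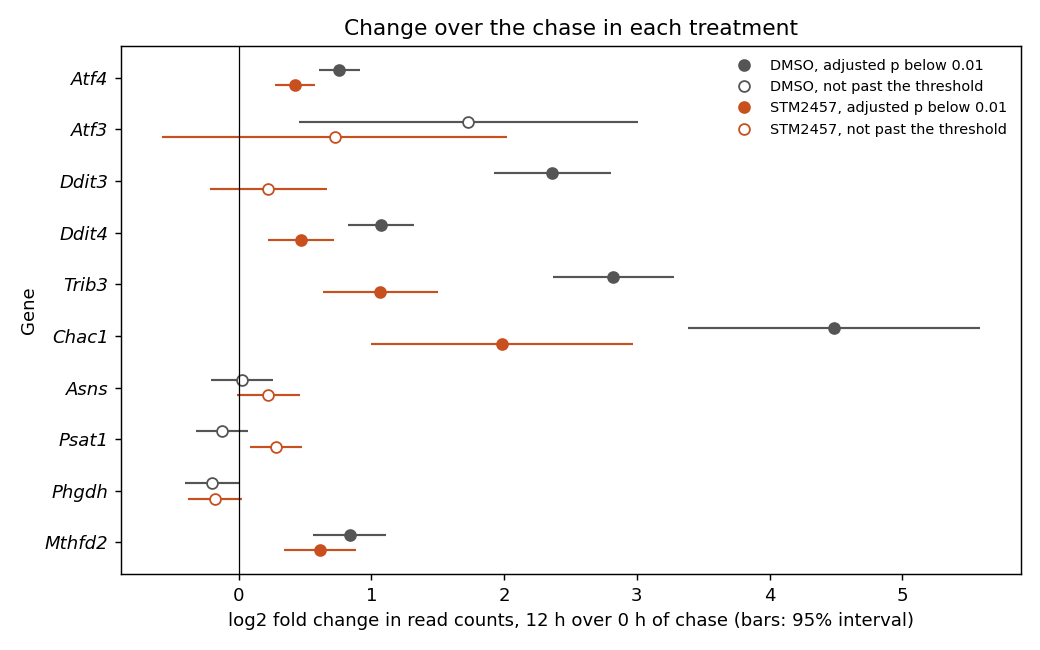
log2 fold change in read counts from 0 h to 12 h of chase for each gene (y axis), with 95% intervals; filled points passed an edgeR adjusted p of 0.01. The DMSO points (grey) lie to the right of the STM2457 points (orange) for Chac1, Trib3, Ddit3, Ddit4, Mthfd2 and Atf4.

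The same comparison was made under STM2457. Between 0 h and 12 h 5 of the genes rose and none fell, against 1.69% of all genes that rose, 3.03% that fell and 4.72% called in either direction. The median log2 change was 0.45 for the 10 genes and -0.00 for all genes. Chac1 rose from 3.97, 4.46, 8.55 and 4.98 CPM to 21.6, 33.5, 18.9 and 12.9 CPM (log2 1.98 ± 0.49, edgeR adjusted p = 0.0045). Trib3 rose from 27, 21.2, 19.4 and 18.2 CPM to 53.4, 46.1, 41.3 and 39.1 CPM (log2 1.07 ± 0.22, edgeR adjusted p = 0.00039). Libraries at 12 h lay wholly above those at 0 h for 7 of the 10 genes, as they did for 8.07% of all genes. These were Atf4, Ddit4, Trib3, Chac1, Asns, Psat1 and Mthfd2, of which Asns and Psat1 did not pass the test.

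The other risers under STM2457 were Mthfd2 (log2 0.61 ± 0.14, edgeR adjusted p = 0.0013), Ddit4 (0.47 ± 0.12, 0.0086) and Atf4 (0.42 ± 0.08, 6.9e-05). This count of 5 is fragile: it dropped to 2 without STM2457 replicate 1, 1 without replicate 2 and 3 without replicate 4. Ddit3 was at 20.7, 18.4, 24.3 and 27.2 CPM at 0 h and at 34.4, 29.4, 23.9 and 18.3 CPM at 12 h. These ranges overlapped (log2 0.22 ± 0.22, edgeR adjusted p = 0.60), and Ddit3 passed no test of change over the 8 times under STM2457 (adjusted p = 0.26). In that F test 8 of the 10 genes were called, against 19.1% of all genes, and without STM2457 replicate 2 the count was 5. At 8 h none of the 10 was called against 0 h under STM2457, where edgeR called 1.57% of all genes; 2 of the 10, Atf4 (log2 0.24 ± 0.08, adjusted p = 0.054) and Phgdh (-0.22 ± 0.10, adjusted p = 0.26), had an unadjusted p under 0.05, as had 2084 of all 12659 genes, and DESeq2 also called 0 of the 10.

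The study's main contrast was STM2457 against DMSO. At 12 h, 3 of the genes were lower under STM2457 and none was higher, against 1.56% of all genes that were lower, 3.85% that were higher and 5.41% called in either direction. These were Ddit3, Ddit4 and Trib3. The median log2 difference was -0.56 for the 10 genes and -0.03 for all genes.

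Ddit3 differed most. The 4 DMSO libraries at 12 h, given above, lay between 101 and 139 CPM and the 4 STM2457 libraries between 18.3 and 34.4 CPM. The level was 4.55-fold lower under STM2457 (log2 -2.19 ± 0.22, edgeR adjusted p = 7.4e-12). At 8 h the libraries already separated, at 39.2, 51.3, 77.6 and 42.5 CPM in DMSO and 11.7, 25.3, 23.8 and 21.4 CPM in STM2457 (log2 -1.35 ± 0.22, adjusted p = 1.6e-05).

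Ddit4 at 12 h was at 234, 178, 199 and 205 CPM under STM2457, all below the lowest DMSO library (311 CPM). The log2 difference was -0.96 ± 0.12 (edgeR adjusted p = 1.8e-08). At 8 h it was -0.71 ± 0.13 (adjusted p = 5.4e-05), and Ddit3 and Ddit4 were the 2 members called then, against 0.553% of all genes that were lower and 2.34% called in either direction.

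Trib3 at 12 h was 1.88-fold lower under STM2457 (log2 -0.91 ± 0.21, edgeR adjusted p = 0.0016), with the highest STM2457 library at 53.4 CPM and the lowest DMSO library at 61.6 CPM. This call was lost without DMSO replicate 4 (log2 -0.80) or without STM2457 replicate 3 (-0.85) or 4 (-0.84). Chac1 at 12 h did not overlap either, with 12.9 to 33.5 CPM against 46.7 to 62.3 CPM. Its difference, log2 -1.30 ± 0.46, missed the threshold (adjusted p = 0.059). Ddit3, Ddit4, Trib3 and Chac1 were the 4 genes that were lower in STM2457 without overlap at 12 h, as were 8.74% of all genes. At 8 h there were 3, all of these but Trib3, beside 6.57% of all genes. Atf4 (log2 -0.21 ± 0.08, adjusted p = 0.062) and Mthfd2 (-0.09 ± 0.14, adjusted p = 0.78) overlapped, as did Asns (-0.01 ± 0.12), Psat1 (0.11 ± 0.10) and Phgdh (-0.00 ± 0.10).

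Before the late rise the order was the opposite for Trib3 and Chac1. At 0 h Trib3 was at 9.71 to 17.3 CPM in DMSO and at 18.2, 19.4, 21.2 and 27 CPM in STM2457. In the unlabelled libraries it was at 11.9, 13.6, 8.97 and 7.68 CPM in DMSO and at 17.4, 17.8, 20.5 and 18.8 CPM in STM2457. The groups did not overlap at 7 of the 9 conditions, 6 with STM2457 higher and 12 h with STM2457 lower. Of all genes, 10.9% did not overlap in the unlabelled libraries, 10.8% at 0 h and 17.9% at 12 h, in either direction. That share was not counted at 1, 1.5, 2.3 and 5.3 h, where the rest of the 7 lie. The single comparisons missed the threshold (log2 0.85 ± 0.23 at 0 h, adjusted p = 0.018; 0.82 ± 0.23 unlabelled, adjusted p = 0.020), while the mean over the 8 chase times was higher under STM2457 (log2 0.56 ± 0.08, adjusted p = 3.3e-08). That mean joins values of both signs.

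Chac1 was likewise at 7.17, 7.78, 7.38 and 11.1 CPM in unlabelled STM2457 libraries and at 4.41, 5.38, 2.54 and 0.808 CPM in unlabelled DMSO libraries (log2 1.32 ± 0.52, edgeR adjusted p = 0.12). These did not overlap, which held for 10.9% of all genes in the unlabelled libraries, 4.77% being lower in STM2457. Ddit4 went the other way: STM2457 was below DMSO in the mean of 9 of 9 conditions, and in the unlabelled libraries the levels were 63.9, 89.1, 88.6 and 76.4 CPM against 126, 126, 114 and 107 CPM. Ddit4 was the 1 gene of the 10 called there (log2 -0.57 ± 0.13, adjusted p = 0.0023), against 2.58% of all genes. It was not called when only those 8 libraries were fitted, or without DMSO replicate 2 or STM2457 replicate 1.

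At 0 h, after 6 h of treatment, none of the 10 was called by edgeR, against 1.68% of all genes (1.27% higher and 0.411% lower); 4 had an unadjusted p under 0.05 (Trib3, Psat1, Ddit4 and Chac1), as had 2033 of all 12659 genes, and DESeq2 called 1, Trib3. Averaged over the 8 chase times 6 were called, against 26.5% of all genes: Trib3, Mthfd2 (log2 0.19 ± 0.05) and Atf4 (0.09 ± 0.03) higher and Ddit4 (-0.39 ± 0.04), Ddit3 (-0.37 ± 0.08) and Psat1 (-0.19 ± 0.04) lower. Leaving out 1 replicate of either treatment gave counts from 4 to 8. Atf4 lost the call without DMSO replicate 1, 2 or 3 or STM2457 replicate 2, 3 or 4, and Mthfd2 without STM2457 replicate 3. Of these 6 genes, only Ddit4 had the same sign at all 8 times. Ddit3 was higher under STM2457 at 1.5 h (difference of mean log2 CPM 0.66) and 5.3 h (0.59). It was lower at the other times, most at 8 h (-1.36) and 12 h (-2.21).

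**Figure D3:**
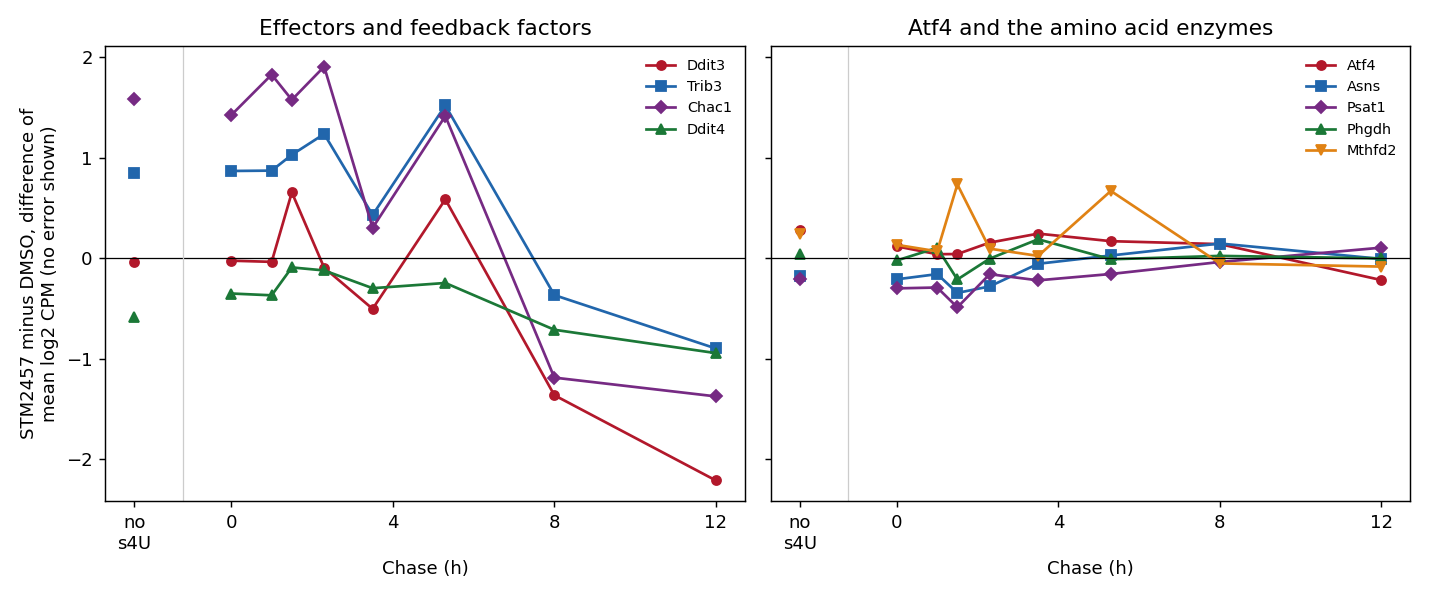
Difference of mean log2 CPM, STM2457 minus DMSO, at each chase time in h and in unlabelled libraries (left). Trib3 and Chac1 lie above 0 up to 5.3 h and below it at 8 and 12 h, and Ddit4 lies below 0 throughout. Ddit3 lies above 0 at 1.5 and 5.3 h and furthest below it at 8 and 12 h. The largest differences among the enzymes and Atf4 are those of Mthfd2 at 1.5 and 5.3 h, above 0, and of Psat1 at 1.5 h, below it.

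The dependence on time was tested directly. The STM2457 effect differed among the 8 chase times for 5 of the 10 genes (edgeR F test on 7 degrees of freedom), against 1.78% of all genes. These were Ddit3 (adjusted p = 7.0e-10), Trib3 (1.4e-07), Ddit4 (0.0031), Mthfd2 (0.0067) and Chac1 (0.0079). The count was 5 without DMSO replicate 1 but 3 without DMSO replicate 2 or 3 or STM2457 replicate 1, 2 or 3, and 2 without DMSO or STM2457 replicate 4. For the single change from 0 h to 12 h, a contrast added after the values were known, STM2457 differed from DMSO for Ddit3 (log2 -2.14 ± 0.31, adjusted p = 3.7e-06) and Trib3 (-1.76 ± 0.31, adjusted p = 0.00012). These were 2 of 10, against 0.190% of all genes in that direction, 0.916% in the other and 1.11% in either. The values for Chac1 (-2.50 ± 0.71, adjusted p = 0.040), Ddit4 (-0.61 ± 0.18, 0.046) and Atf4 (-0.34 ± 0.11, 0.085) had the same sign and missed the threshold.

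Mthfd2 was called for differing among times although the treatments were close to each other at 0 h and at 12 h (STM2457 minus DMSO, mean log2 CPM, 0.14 and -0.08). In DMSO its mean was 90.9 CPM at 3.5 h, 56.2 CPM at 5.3 h and 96.1 CPM at 8 h, and in STM2457 it was 92.5, 89.0 and 93.2 CPM. At 5.3 h the DMSO libraries (45.3 to 62.2 CPM) lay wholly below the STM2457 libraries (84.7 to 94.8 CPM), and at 1.5 h DMSO lay at 45.5 to 74.5 CPM and STM2457 at 89.3 to 104 CPM. Single times other than 0, 8 and 12 h were not tested, and the share of all genes without overlap was not counted there.

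Between unlabelled cells and labelled cells at 0 h, 1 of the 10 genes differed. Ddit4 was higher in cells after 24 h of s4U than in unlabelled cells, in DMSO (0 h values above, against 126, 126, 114 and 107 CPM; log2 0.67 ± 0.13, edgeR adjusted p = 0.00072) and in STM2457 (log2 0.89 ± 0.13, adjusted p = 5.3e-06). The groups did not overlap in either treatment, and the share of all genes for which this holds was not counted. The summed mesoderm markers, given above, also differed between unlabelled and 0 h libraries, and their part was not tested. Of all genes, 0.513% were called in DMSO (0.30% higher) and 0.521% in STM2457 (0.269% higher). The DMSO call was lost when only those 8 libraries were fitted and without DMSO replicate 2, 3 or 4. Ddit3 had log2 values of 0.55 ± 0.23 and 0.56 ± 0.23 (adjusted p = 0.27 and 0.26). None of the 12659 genes differed in the labelling effect between treatments by edgeR (0.00%; 487 had an unadjusted p under 0.05, and DESeq2 called 0 of the 10).

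Other genes of the pathway were taken from lists drawn up with earlier results known. Of 14 subunits of eIF2, its kinases, eIF2B and the eIF2 phosphatase, none rose and 2 fell between 0 and 12 h in DMSO, Ppp1r15b (log2 -0.67 ± 0.14) and Eif2s3x (-0.61 ± 0.12). Of 9 partner and feedback factors, Jdp2, a bZIP factor, rose (3.43 ± 0.98) and Cebpg, a dimer partner of ATF4, fell (-0.98 ± 0.16). Of 10 amino acid transporters 3 rose and none fell: the glycine carrier Slc6a9 (2.99 ± 0.47), the cationic amino acid carrier Slc7a1 (1.57 ± 0.28) and the neutral amino acid carrier Slc1a4 (1.25 ± 0.18).

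Of 11 tested enzymes of amino acid and one-carbon synthesis 3 rose and 1 fell in DMSO. Among the risers were the mitochondrial phosphoenolpyruvate carboxykinase Pck2 (log2 1.94 ± 0.27) and the proline enzyme Pycr1 (1.64 ± 0.35). Of 17 cytosolic aminoacyl-tRNA synthetases 1 rose (Nars, 0.38 ± 0.11) and 2 fell (Hars, -0.51 ± 0.13, and Aars, -0.34 ± 0.08). Of 15 endoplasmic reticulum chaperones and XBP1 or ATF6 targets 1 rose, Herpud1, a component of ER-associated degradation (1.87 ± 0.18, edgeR adjusted p = 1.2e-12). The median log2 changes of these lists were 0.27, 0.50, 0.65, 0.27, -0.07 and -0.04 in this order, beside 0.04 for all genes.

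Under STM2457 the transporters again had 3 risers of 10, Slc7a1 (log2 1.29 ± 0.28), Slc1a4 (0.86 ± 0.18) and Slc1a5 (0.59 ± 0.12), and the synthesis list had 1, Pck2 (1.05 ± 0.27). The ER list had 4 risers of 15, among them the transcription factor Xbp1 (0.84 ± 0.16), Herpud1 (0.73 ± 0.18) and Manf (0.46 ± 0.12). The change from 0 h to 12 h differed between treatments for 1 gene of these 6 lists, Herpud1 (log2 -1.14 ± 0.25, adjusted p = 0.0034). Its levels were 27.9 CPM at 0 h and 102 CPM at 12 h in DMSO and 34.2 and 56.8 CPM in STM2457 (means, n = 4). At 12 h the ER list held both directions, with Herpud1 lower under STM2457 (-0.85 ± 0.18) and Xbp1 (0.62 ± 0.16) and Manf (0.55 ± 0.12) higher.

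The pluripotency list changed as well. In DMSO 5 of its 7 tested genes fell between 0 h and 12 h, including Tdgf1 (log2 -1.30 ± 0.14) and Zfp42 (-1.08 ± 0.21), and in STM2457 3 of 7 fell. At 12 h Zfp42 (1.28 ± 0.21), Esrrb (0.81 ± 0.14) and Nanog (0.69 ± 0.12) were higher under STM2457 than DMSO. These differences were not only late. Esrrb was already higher at 0 h (log2 0.60 ± 0.14, edgeR adjusted p = 0.0046). Averaged over the 8 chase times, Zfp42 (0.69 ± 0.07), Esrrb (0.64 ± 0.05) and Nanog (0.36 ± 0.04) were higher under STM2457. Tdgf1 was lower (-0.44 ± 0.05), and Pou5f1, Klf4 and Dppa5a were not called. The part of these changes in the results for the stress genes was not tested.

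The 5 genes outside the 10 whose pattern over the 18 group means was most like their mean were Tubg2 (Pearson r = 0.904), Herpud1 (0.881), Pck2 (0.872), Hhex (0.860) and Gm11532 (0.852). The groups share depth and scaling, and r is given as a description. Gm11532 and Tubg2 were at low levels, so their r rests on few reads. In DMSO they were at 0.248 and 3.00 CPM at 0 h and at 3.09 and 10.3 CPM at 12 h (from mean log2 CPM). Among the 10 genes, Trib3 and Chac1 were the most alike (r = 0.944), followed by Asns and Psat1 (0.853), while the r with the mean of the 10 ran from 0.0814 for Phgdh to 0.851 for Chac1.

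The second measurement was decay. The conversion rate is the share of T positions in a gene's reads that were read as C. It falls when labelled RNA decays and also when new unlabelled RNA is added, so for the genes that rose the half-life of the rate and that of the labelled RNA need not be the same. In the whole libraries the rate dropped from a mean of 1.01% at 3.5 h to 0.534% at 5.3 h in DMSO, the widest step of the chase, and every fit below spans this step.

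Atf4 gave the tightest curve. Its rate was 1.16% ± 0.12 (SD, n = 4) at 0 h, 0.482% ± 0.012 at 3.5 h and 0.196% ± 0.015 at 5.3 h in DMSO, against 0.120% in unlabelled cells. In STM2457 it was 1.10% ± 0.11, 0.455% ± 0.040 (n = 3) and 0.192% ± 0.021. The half-life was 2.08 h in control cells and 2.13 h under STM2457, and the 4 series, each fitted on the libraries of 1 replicate number, ran from 1.86 to 2.54 h and from 1.86 to 2.61 h. The log2 ratio was 0.02 ± 0.23 (95% interval -0.49 to 0.54, limma adjusted p = 0.996). For every gene, the 4 series of a treatment had the same background subtracted, the mean rate of its unlabelled libraries. An error in that background is shared by the 4 series and is not part of their spread.

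**Figure D4:**
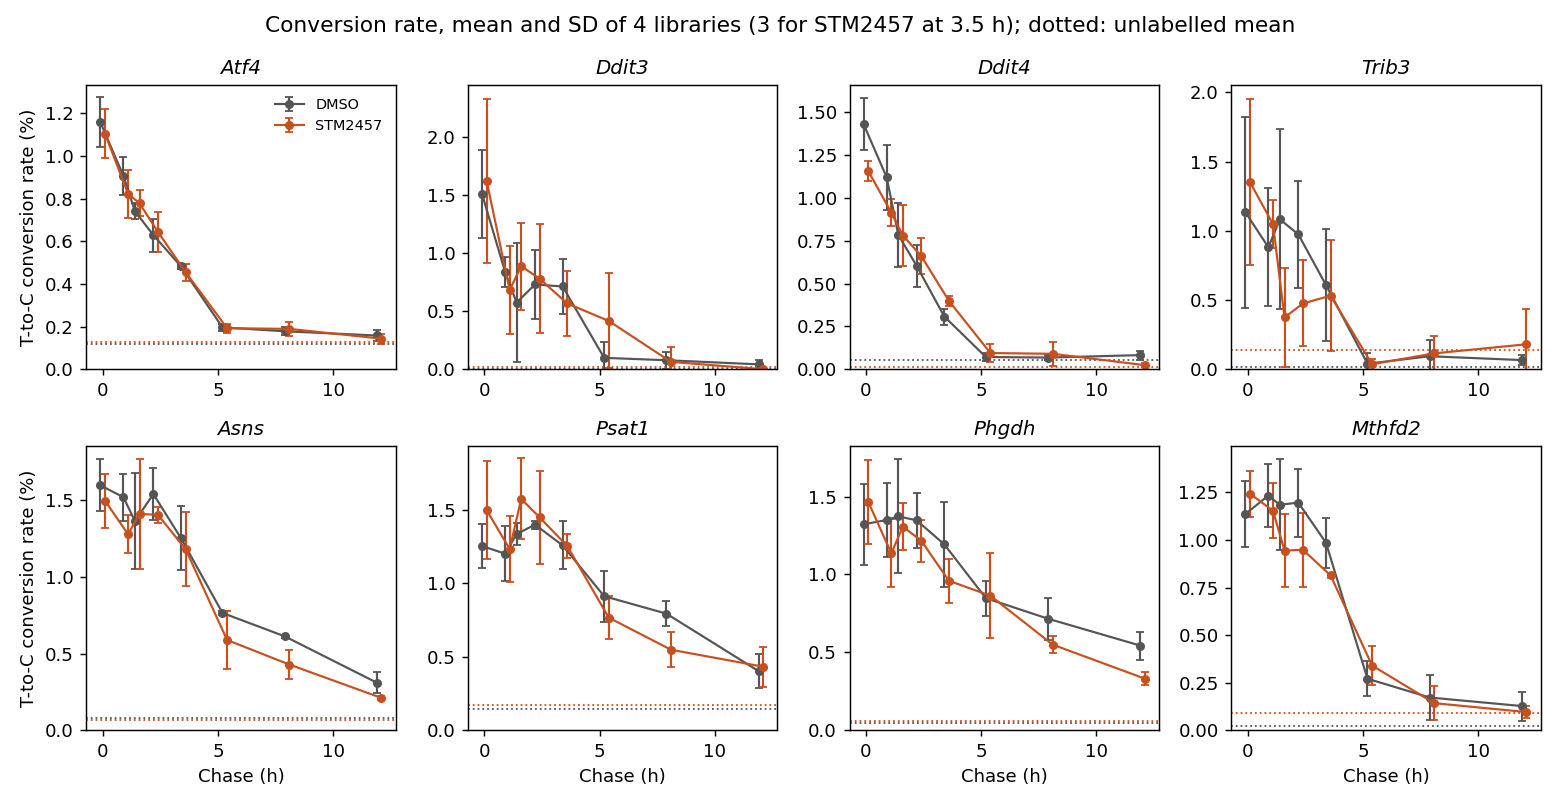
T-to-C conversion rate in % against chase time in h for the 8 genes with a fitted half-life; points are group means with SD, and dotted lines are the unlabelled means. Atf4 and Ddit4 fall from the first hour, whereas in DMSO Asns, Psat1, Phgdh and Mthfd2 stay near their 0 h rate to about 2.3 h and drop between 3.5 and 5.3 h.

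A half-life passed the study's filters in both treatments for 8 of the 10 genes, and for 7408 transcripts in all, whose medians were 3.19 h in DMSO and 3.45 h in STM2457. Atf3 and Chac1 failed, with few labelled reads. The genes fell into a fast and a slow set. The factors Atf4, Ddit3 (1.77 h in DMSO and 1.82 h in STM2457) and Ddit4 (1.64 and 2.28 h) were shorter-lived than the median. Ddit3 was uncertain under STM2457, where its series ran from 0.711 to 3.98 h and leaving out STM2457 replicate 3 gave 2.92 h. In DMSO, 10.5% of the 7408 transcripts were shorter-lived than Ddit3 and 8.10% were shorter-lived than Ddit4.

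The enzymes were long-lived in DMSO, with Asns at 5.93 h, Mthfd2 at 5.17 h, Psat1 at 10.7 h and Phgdh at 10.4 h. The fitted values in STM2457 were 5.17, 3.34, 6.12 and 5.69 h. In DMSO 85.0% to 98.7% of transcripts were shorter-lived than these 4, but in STM2457 only 46.3% were shorter-lived than Mthfd2. The DMSO fits of Mthfd2 and Psat1 were loose (residual standard error 0.234 and 0.167), and both genes failed at a limit of 0.15, as did Trib3. Fitted to 0 to 5.3 h alone, Psat1 in DMSO came out at 26.9 h, outside the filter. Phgdh rests mostly on reads that mapped to several places, and its DMSO series ran from 6.49 to 27.4 h. Trib3 was the least certain, at 3.20 h in DMSO and 1.23 h in STM2457, with series from 1.24 to 16.5 h and from 0.762 to 2.83 h.

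**Figure D5:**
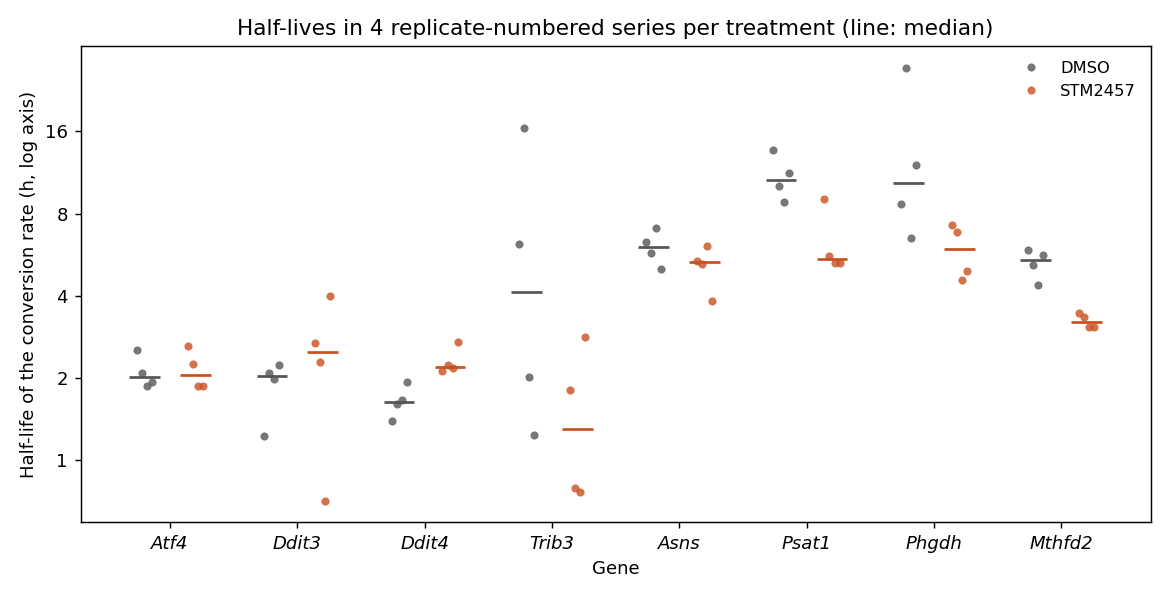
Half-life of the conversion rate in h (log axis) for 8 genes, with 1 point per replicate-numbered series and a line at the median. The DMSO and STM2457 series of Ddit4 and Mthfd2 do not overlap, those of Atf4, Ddit3 and Asns overlap, and Trib3 and Phgdh scatter widely. The share of all transcripts without overlap was not counted.

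No gene's half-life passed the test between treatments: limma called 0 of 5772 transcripts at an adjusted p of 0.05 (0.00%), 405 had an unadjusted p under 0.05, and the fit of single-library slopes called 0 of 9205. Of the 10 genes 7 were in this test, all but Atf3, Chac1 and Phgdh, and 2 of these had an unadjusted p under 0.05, Mthfd2 and Psat1. Mthfd2 series were 5.90, 5.20, 4.39 and 5.62 h in DMSO and 3.46, 3.36, 3.08 and 3.06 h in STM2457, without overlap (log2 -0.70 ± 0.21, limma adjusted p = 0.67). Its slope over 0 to 5.3 h had a difference of the other sign, a slower loss in STM2457, that missed the threshold (0.03 ± 0.08 log2 per h, limma adjusted p = 0.94). The half-life model fitted to the same 0 to 5.3 h gave 7.30 h in DMSO and 3.85 h in STM2457. That model subtracts the unlabelled rate, for Mthfd2 a mean of 0.0228% in DMSO and 0.0932% in STM2457, whereas the slopes do not. The sign thus differed between 2 fits that differ in model and in background, and the part of each was not tested.

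Psat1 series were 13.7, 10.1, 8.80 and 11.2 h in DMSO and 9.04, 5.59, 5.29 and 5.26 h in STM2457 (log2 -0.82 ± 0.27, limma adjusted p = 0.67). They overlapped by 1 STM2457 series. Ddit4 series were 1.39, 1.60, 1.66 and 1.94 h in DMSO and 2.12, 2.23, 2.17 and 2.70 h in STM2457, without overlap and in the other direction (log2 0.49 ± 0.22, limma adjusted p = 0.71). How many of all transcripts have series without overlap was not counted, so no weight is put on it for Ddit4 or Mthfd2.

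Ddit4 also differed at the start of the chase. Its rate at 0 h was 1.30% to 1.65% in the DMSO libraries and 1.10% to 1.22% in the STM2457 libraries. These did not overlap, and the share of all transcripts for which this holds was not counted. Limma called none of 10003 transcripts at 0 h (0.00%; 589 with an unadjusted p under 0.05), and the adjusted p of Ddit4 was 0.82. The 0 h rate enters the half-life as its divisor.

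Labelled conversions were also counted relative to library size. This removes most of the dilution by new unlabelled RNA of the same gene, but new RNA of all genes together still lowers the value. The half-lives were then 1.21 h (DMSO) and 1.79 h (STM2457) for Ddit4. For Ddit3 they were 2.75 and 2.05 h, so that the order of the treatments turned, while Atf4 stayed at 2.47 and 2.52 h. The enzymes kept their order, with Psat1 at 8.93 and 5.98 h, Phgdh at 8.42 and 5.06 h, Mthfd2 at 5.76 and 3.94 h and Asns at 5.23 and 4.97 h.

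At 12 h in DMSO, the rate of Ddit3 was 0.0418% ± 0.0370 against 1.51% ± 0.38 at 0 h, that of Trib3 0.0660% ± 0.0345 against 1.13% ± 0.69, and that of Ddit4 0.0822% ± 0.0258 against 1.43% ± 0.15. These rest on 23, 27 and 205 conversions in all 4 libraries. Chac1, already higher at 8 h, had a rate of 0.524% ± 0.603 then, on 37 conversions, against 0.723% ± 1.45 at 0 h, on 10 conversions, and 0.116% ± 0.116 at 12 h. The rate of Ddit4 in unlabelled DMSO cells was 0.0542% ± 0.0395, which overlaps its rate at 12 h.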

How the data were processed

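Total RNA was alkylated and made into 3′ mRNA-seq (QuantSeq) libraries, which were pooled and sequenced together on 3 flow cells. Per the labels and the study's methods, the authors checked reads with FastQC 0.11.8 and processed them with SLAM-DUNK 0.4.3 on GRCm38.p6, allowing up to 100 mapping positions per read, masking variants called in the unlabelled libraries (fraction 0.2), and counting in 3′ UTR windows matched to GENCODE M23. The deposited tables hold, per gene, raw read counts, multimapping read counts, conversions, T coverage, a CPM value and the conversion rate as a fraction. Per the study's methods, the authors had merged the 3′ UTR windows of genes with several with the collapse step of SLAM-DUNK. No molecular identifiers were used, so read counts are not independent molecules. The deposited CPM values were not used; CPM in the text are TMM-scaled from the counts.

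The members, lists and tests were chosen with earlier results of these data known. All members are named; of each other list, at most 3 genes with the largest log2 fold change past the threshold. Counts were tested with edgeR 4.0.16 (quasi-likelihood, TMM, filterByExpr, 1 mean per group over all 71 libraries, Benjamini-Hochberg, adjusted p below 0.01; ± is the standard error). Half-lives followed the study's model: background-subtracted rates divided by the 0 h value, an exponential fixed at 1 at 0 h, T coverage above 100, half-life 0.67 to 18 h and residual standard error at most 0.3. Replicate series and 0 h rates were tested with limma 3.58.1 (adjusted p below 0.05). DESeq2 1.42.0 was an alternative. Simulated data were used to check the half-life fit, the edgeR contrast of treatments at 12 h and the limma test of half-life series. The other tests were not checked in this way. Depth was 4539726 to 7368244 reads per library. Replicate numbers were not taken as pairs, since same-numbered libraries of the 2 treatments correlated above 0.1 in every pair only at 0 h.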

Additional observations from a re-analysis of the deposited data

Results flagged for a closer look

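Of 184 groups of 4 values examined (levels in each group and half-life series), 9 had 1 value far from the other 3, where chance gives about 9.2 (1 in 20). The highest library was set apart for Trib3 in DMSO at 0 h (17.3 CPM, mean of the others 10.1) and at 1 h (13.4 CPM, 9.03), Chac1 in unlabelled STM2457 (11.1 CPM, 7.44) and in STM2457 at 5.3 h (4.06 CPM, 2.46), and Phgdh in STM2457 at 0 h (202.7 CPM, 170.6) and 1 h (231.1 CPM, 193.2). The lowest was set apart for Ddit3 in STM2457 at 5.3 h (15.3 CPM, 22.8) and Phgdh in unlabelled DMSO (209.7 CPM, 226.9). For the half-life of Psat1, 1 STM2457 series (9.04 h) lay above the other 3 (mean 5.38 h).

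The treatments differed in their course over the chase for 5 genes by the test of the difference itself: edgeR adjusted p = 7.0e-10 for Ddit3, 0.0031 for Ddit4, 1.4e-07 for Trib3, 0.0079 for Chac1 and 0.0067 for Mthfd2. In the change from 0 h to 12 h the difference, STM2457 minus DMSO, was log2 -2.14 for Ddit3 and -1.76 for Trib3.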

How the results depend on the processing

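Over 30 called values of the 10 genes and all alternatives, 417 of 450 values kept direction and call, 33 lost the call and 0 changed direction. At an adjusted p of 0.05 the numbers of genes called were 3 in unlabelled cells, 1 at 0 h, 2 for labelling in STM2457 and 4 for the treatments' difference in the change from 0 h to 12 h, against 1, 0, 1 and 2. DESeq2 called 3 in unlabelled cells and 1 at 0 h, and a fit of the compared libraries alone called 0 in unlabelled cells and 0 for labelling in DMSO. Without multimapping reads 3 genes, not 5, differed among chase times, and a residual standard error limit of 0.15 left 5 half-lives of 8. Leaving out 1 replicate gave 0 to 1 genes called in unlabelled cells, 0 to 1 at 0 h, 2 to 5 differing among times, 1 to 5 changing from 0 h to 12 h and 5 to 8 at any time under STM2457, and 0 to 1 for labelling in DMSO.

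Values near 0 changed sign. Without multimapping reads, the log2 change from 0 h to 12 h in DMSO was -0.015 for Asns and 0.12 for Phgdh, that of Phgdh in STM2457 was 0.20, and the difference between treatments was 0.28 for Phgdh at 0 h and, at 12 h, 0.36 for Phgdh and 0.012 for Asns; for Phgdh at 12 h the compared libraries alone gave 0.0052. Leaving out 1 replicate, the difference between treatments ran at 12 h from -0.079 to 0.062 for Asns, -0.023 to 0.056 for Phgdh and -0.12 to 0.014 for Mthfd2, at 0 h from -0.16 to 0.16 for Ddit3 and -0.10 to 0.060 for Phgdh, in unlabelled cells from -0.15 to 0.085 for Ddit3 and -0.041 to 0.12 for Phgdh, and over the 8 times from -0.015 to 0.032 for Phgdh. The change in DMSO ran from -0.0098 to 0.051 for Asns, and the difference in that change from -0.065 to 0.10 for Phgdh. The cause was not tested.

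Over all genes, an adjusted p of 0.05 raised the calls from 326 to 743 in unlabelled cells, 213 to 461 at 0 h, 685 to 1258 at 12 h, 225 to 527 differing among times, 1651 to 2856 and 598 to 1205 from 0 h to 12 h in DMSO and STM2457, 2415 to 4065 for any change in STM2457, 65 to 157 and 66 to 189 for labelling, and 140 to 283 for the difference in change. The 8 h contrasts, added after seeing the data, went from 296 to 591 between treatments and from 494 to 1186 and 199 to 466 against 0 h. The compared libraries alone gave 107 in unlabelled cells, 956 in STM2457 from 0 h to 12 h, 14 for labelling in DMSO, 541 between treatments at 8 h and 823 in DMSO at 8 h. DESeq2 gave 487 differing among times and 112 and 125 for labelling.

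With the replicate number as a block, 6 genes were called between treatments over the 8 times, 3 at 12 h and 6 from 0 h to 12 h in DMSO, the numbers found without pairing; the block changed no number of the 10 genes called, and for the half-life of Mthfd2 it gave a limma adjusted p of 0.772. The mean correlation of same-numbered libraries ran from -0.137 to 0.262 over the 9 conditions.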
